A study of Arabidopsis thaliana with 12 samples.

Results

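Expansin A genes encode proteins of the plant cell wall, and 9 of them were followed here over 2 genotypes and 2 treatments: EXPA1 (AT1G69530), EXPA3 (AT2G37640), EXPA4 (AT2G39700), EXPA5 (AT3G29030), EXPA6 (AT2G28950), EXPA8 (AT2G40610), EXPA10 (AT1G26770), EXPA11 (AT1G20190) and EXPA15 (AT2G03090). They were taken by their locus codes from a table of 32678 genes, in which 26 further expansin genes are listed. All 9 passed the filter on low counts, which kept 20994 genes. RNA was sequenced from whole Arabidopsis thaliana seedlings, 8 days old, of the wild type Col-0 (Col below) and of the line mapkkk5-1 (mapkkk5 below), a single mutant allele named for the MAP kinase kinase kinase gene MAPKKK5. After 3 h in liquid medium, seedlings of each genotype were given mock treatment or chitin, a polymer of fungal cell walls that plants sense through receptor kinases, for 3 h. The chitin concentration stands as 40 µM in the treatment protocol and as 40 mM in the design text. Each of the 4 groups held 3 libraries, 1 from each of 3 independent experiments, so that replicate 1 of every group is called experiment 1 below.

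Expansins loosen the wall without cutting its polymers. They are thought to weaken the contacts between cellulose and other wall polysaccharides, mostly at the low wall pH that plasma membrane proton pumps create, so that turgor can stretch the cell. Alpha-expansins (EXPA) are the classical agents of this acid growth, beta-expansins (EXPB) form a sister family, and the expansin-like families (EXLA and EXLB) share their fold but have no established loosening activity. In seedlings, transcripts of alpha-expansins are typical of elongating hypocotyl, root and young leaf cells, and many of the genes are known to respond to auxin, brassinosteroid and gibberellin.

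The 9 genes lie on chromosomes 1, 2 and 3. Their coding sequences were 759 to 828 bases long and 62.3 to 79.7% identical in pairs. No stretch of 50 bases in their transcripts occurred unchanged in another gene, so that reads of that length could not match 2 of them exactly. Matches with mismatches were not examined. EXPA1 and EXPA10 were the most alike pair, at 79.7%, followed by EXPA4 and EXPA6, at 77.7%. No annotated gene overlapped any of the 9.

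The 250 bases upstream of the annotated transcript start are shown for the 6 genes on which the comparisons turn: EXPA1, which rose after chitin, EXPA10, which did not pass the test, and 4 of the 7 genes that fell. They come from the NCBI RefSeq assembly TAIR10.1 and are written 5′ to 3′ on the strand of the gene. Capitals mark a match, on either strand, to 1 of 6 short motifs.
EXPA1: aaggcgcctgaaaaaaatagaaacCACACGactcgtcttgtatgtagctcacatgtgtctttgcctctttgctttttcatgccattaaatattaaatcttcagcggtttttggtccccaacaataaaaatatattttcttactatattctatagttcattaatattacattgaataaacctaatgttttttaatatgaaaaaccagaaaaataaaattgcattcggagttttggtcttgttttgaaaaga
EXPA10: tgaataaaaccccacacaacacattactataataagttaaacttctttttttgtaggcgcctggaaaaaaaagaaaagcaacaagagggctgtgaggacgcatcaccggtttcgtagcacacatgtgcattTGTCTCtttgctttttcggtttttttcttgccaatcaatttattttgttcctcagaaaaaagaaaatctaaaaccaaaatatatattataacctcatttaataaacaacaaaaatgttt
EXPA6: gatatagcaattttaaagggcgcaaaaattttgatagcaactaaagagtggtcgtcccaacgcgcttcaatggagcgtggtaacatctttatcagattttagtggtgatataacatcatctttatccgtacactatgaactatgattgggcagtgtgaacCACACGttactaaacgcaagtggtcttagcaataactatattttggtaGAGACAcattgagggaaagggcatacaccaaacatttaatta
EXPA8: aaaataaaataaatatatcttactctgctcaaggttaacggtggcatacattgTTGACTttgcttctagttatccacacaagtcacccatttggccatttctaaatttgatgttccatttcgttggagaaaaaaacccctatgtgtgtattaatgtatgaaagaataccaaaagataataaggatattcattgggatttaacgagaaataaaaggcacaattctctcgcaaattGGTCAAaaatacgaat
EXPA3: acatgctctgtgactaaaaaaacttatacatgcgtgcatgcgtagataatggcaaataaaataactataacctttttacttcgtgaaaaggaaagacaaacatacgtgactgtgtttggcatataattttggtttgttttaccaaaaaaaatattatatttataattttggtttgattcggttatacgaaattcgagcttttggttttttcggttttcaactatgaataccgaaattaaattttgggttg
EXPA15: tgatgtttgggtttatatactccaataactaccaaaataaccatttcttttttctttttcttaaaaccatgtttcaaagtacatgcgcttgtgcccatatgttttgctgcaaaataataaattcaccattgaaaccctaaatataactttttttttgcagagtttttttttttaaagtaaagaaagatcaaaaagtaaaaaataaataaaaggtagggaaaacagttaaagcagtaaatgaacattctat
These stretches are chr1:26141476-26141725 (plus strand, EXPA1), chr1:9259182-9259431 (plus strand, EXPA10), chr2:12433797-12434046 (minus strand, EXPA6), chr2:16950706-16950955 (minus strand, EXPA8), chr2:15790140-15790389 (minus strand, EXPA3) and chr2:918672-918921 (minus strand, EXPA15). The motifs searched were the G-box, a pair of W-box forms, a pair of brassinosteroid response elements and the auxin response element, each with 6 letters and none overlapping another here. The G-box CACGTG was in none of the 9 upstream stretches and in 6.49% of 27443 stretches of the same length upstream of annotated genes. TTGACC, a form of the site of WRKY factors, was in EXPA4 and EXPA8 and in 12.2% of all stretches, and the other form of that site, TTGACT, was in EXPA8 and in 19.1% of all. The brassinosteroid response element CGTGTG was in EXPA1 and EXPA6, which moved in opposite directions after chitin, and in 5.37% of all, while its other form CGTGCG was in none of the 9 and in 1.57% of all. The auxin response element TGTCTC was in EXPA5, EXPA6 and EXPA10 and in 10.9% of all. The stretches of EXPA3, EXPA11 and EXPA15 held none of the 6 motifs.

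The libraries held 15455836 to 20179428 reads, and 3 reads, which is as many as a count of 0 can hide, corresponded to 0.152 to 0.200 CPM (read counts scaled to a common library size) by counting error alone. Replicates within a group differed by more than sampling noise in every pair, with a chi-square per degree of freedom of 10.9 to 27.0. MAPKKK5 checks the genotype labels: its level was 28.1, 25.7 and 21.7 CPM in the Col mock libraries of experiments 1, 2 and 3 and 3.90, 5.29 and 3.81 CPM in those of mapkkk5, a difference of -2.53 ± 0.27 on the log2 scale (SE, adjusted p = 0.00147, from the quasi-likelihood test of edgeR adjusted by Benjamini-Hochberg, as for every adjusted p below). After chitin it was 39.9, 37.5 and 45.3 CPM in Col whereas the libraries labelled mapkkk5 held 26.7, 32.9 and 13.6 CPM. That difference, -0.75 ± 0.23, did not pass the test (adjusted p = 0.674). Counts per gene do not show which part of MAPKKK5 those reads came from, so the gene checks the label in mock only.

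In mock-treated Col, EXPA1 and EXPA4 were the most abundant of the 9 genes per transcript length. On the RPKM scale, which divides CPM by the exon length in kilobases, EXPA1 stood at 93.5 ± 10.5 and EXPA4 at 90.2 ± 17.8 (SD, n = 3), and their libraries overlapped. EXPA6 followed at 51.1 ± 4.48 RPKM and EXPA15 at 48.9 ± 17.3 RPKM, again with overlapping libraries, and both stood below EXPA4 in every library. EXPA3 at 27.0 ± 1.5, EXPA10 at 26.4 ± 9.82 and EXPA11 at 22.4 ± 1.72 RPKM formed a further tier in which neighbours overlapped. This tier was not wholly apart from the one above. EXPA10 reached 37.7 RPKM in experiment 3, and EXPA15 was at 35.4 RPKM in experiment 2. EXPA5 stood at 15 ± 1.14 RPKM and EXPA8 was the lowest at 4.81 ± 0.44 RPKM, each apart from its neighbours in the order. The mapkkk5 mock libraries gave the same tiers, except that EXPA15 and EXPA6 changed places, EXPA10 moved ahead of EXPA3, and EXPA4 overlapped EXPA15.

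After chitin, EXPA1 stood alone. In Col it was at 117 ± 15.1 RPKM, and the next gene, EXPA4, was at 33.7 ± 8.66 RPKM with no overlap. EXPA10 came next at 28.4 ± 3.70 RPKM, overlapping EXPA4, and EXPA8 remained last at 2.09 ± 0.09 RPKM. In mapkkk5, EXPA1 was at 132 ± 7.59 RPKM and EXPA4 at 33.0 ± 7.28 RPKM, and EXPA10 came next at 30.2 ± 4.90 RPKM.

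**Figure D1:**
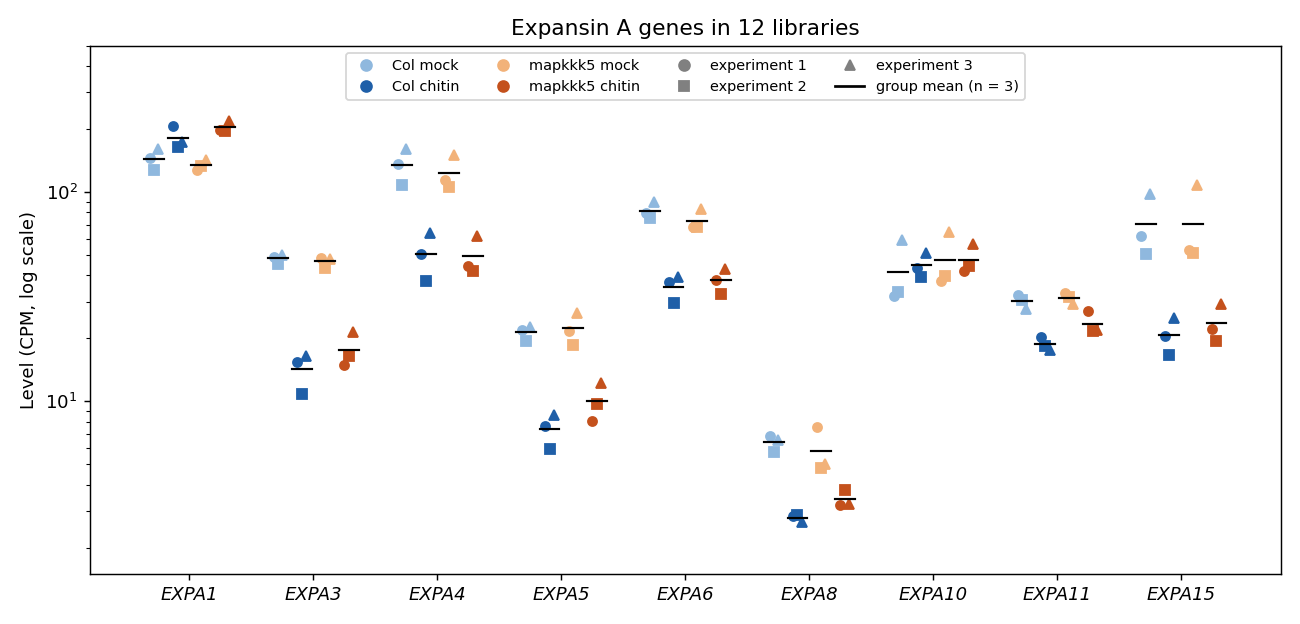
Level of each of the 9 expansin A genes in the 12 libraries, in CPM on a log axis, with a colour for each group, a symbol shape for each experiment and a bar for the group mean (n = 3). EXPA1 sits higher in the chitin groups, EXPA10 overlaps between treatments, and the other 7 genes sit lower in all 3 chitin libraries of each genotype.

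Chitin lowered 7 of the 9 genes and raised 1 in Col. EXPA3, EXPA4, EXPA5, EXPA6, EXPA8, EXPA11 and EXPA15 fell, EXPA1 rose and EXPA10 did not pass the test. Over all genes tested, 38.5% were called in this comparison, 21.2% higher and 17.3% lower, so a call by itself was common. With upper-quartile factors the balance over all genes turned, from 4458 higher and 3625 lower to 3583 higher and 5017 lower, and the median of the 9 members was then -1.31. The median log2 fold change of the 9 genes was -1.2, beside 0.0027 over all genes tested. The members and the other gene lists were chosen with earlier results of these data known. Their contrast with all genes, here and below, is therefore a description and no independent test. In all 7 genes that fell, every chitin library lay below every mock library, which held for 23.2% of all genes, and EXPA1 lay above in the same sense, which held for 26.2%. In RNA from whole seedlings, fewer cells of a type and less RNA per cell cannot be told apart.

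EXPA3 and EXPA15 fell the most. EXPA3 went from 49.2, 45.1 and 50.2 CPM in the Col mock libraries of experiments 1, 2 and 3 to 15.4, 10.9 and 16.5 CPM after chitin. The 3 mock values were close together and far above the chitin values. The fall was 1.75 on the log2 scale (3.37-fold lower, SE 0.16, adjusted p = 1.93e-06). EXPA15 went from 61.4, 50.7 and 98.1 CPM to 20.5, 16.7 and 25.0 CPM. Its mock level in experiment 3 stood well above the other two, and the chitin value of that experiment was also the highest of its group. EXPA15 fell by 1.75 with a wider error (3.37-fold lower, SE 0.31, adjusted p = 0.000524).

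EXPA5, known for a part in hypocotyl and root elongation and in growth responses to brassinosteroid, and EXPA4 followed. EXPA5 stood at 21.9, 19.5 and 22.6 CPM in mock and at 7.58, 5.93 and 8.57 CPM after chitin in Col, and the treatments were well separated. The change was -1.53 ± 0.18 (adjusted p = 2.29e-05). EXPA4 stood at 137, 108 and 161 CPM in mock and at 50.4, 37.5 and 63.5 CPM after chitin, in the same order of experiments in both treatments. Its change was -1.42 ± 0.21 (adjusted p = 0.000172).

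EXPA6, the closest relative of EXPA4 among the 9, stood at 79.1, 75.6 and 89.3 CPM in mock and 37.1, 29.7 and 39.1 CPM after chitin in Col. It fell by 1.2 (SE 0.13, adjusted p = 1.35e-05). EXPA8, the least abundant member, stood at 6.84, 5.72 and 6.55 CPM in mock and 2.82, 2.87 and 2.64 CPM after chitin, from 97 to 125 reads and from 43 to 52 reads per library. Its fall of 1.2 therefore rested on few reads (SE 0.20, adjusted p = 0.000357). EXPA11 changed the least of the genes that fell, from 32.2, 30.4 and 27.6 CPM to 20.2, 18.3 and 17.6 CPM, or -0.69 ± 0.11 (adjusted p = 0.000306).

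EXPA1, which has been studied in leaf growth and in the swelling of stomatal guard cells, was the single member that rose. In Col it stood at 146, 128 and 160 CPM in mock and at 208, 164 and 173 CPM after chitin. The groups did not overlap, but the highest mock library, at 160 CPM, and the lowest chitin library, at 164 CPM, were close. The rise was 0.33 ± 0.12 on the log2 scale, or 1.26-fold (adjusted p = 0.0395). This call was lost under 9 of 21 alternative settings, among them other scaling factors (adjusted p = 0.0561 with RLE and 0.143 with upper-quartile factors) and the removal of 1 library, where adjusted p ranged from 0.0299 to 0.186. The libraries whose removal ended it were Col mock 1 (0.0768), Col chitin 1 (0.176), Col mock 2 (0.186) and mapkkk5 mock 2 (0.0519). With the experiment as a replicate block, adjusted p was 0.00832.

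EXPA10, known for a part in leaf growth, did not pass the test. In Col it stood at 31.9, 33.2 and 59.3 CPM in mock and 43.5, 39.5 and 50.9 CPM after chitin, so that the mock library of experiment 3 was the highest of the 6 and the groups overlapped. The log2 fold change was 0.11 ± 0.24 (95% interval -0.42 to 0.63, adjusted p = 0.761), which leaves room for a change of moderate size in either direction. Within experiments it was 0.45 in the first, 0.25 in the second and -0.22 in the third. In mapkkk5 the within-experiment values were 0.15, 0.16 and -0.20, and the fitted value was 0.01 ± 0.24 (95% interval -0.51 to 0.53, adjusted p = 0.983).

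In mapkkk5, chitin moved the same members in the same directions: EXPA1 rose, EXPA3, EXPA4, EXPA5, EXPA6, EXPA8, EXPA11 and EXPA15 fell and EXPA10 did not pass. Over all genes tested, 34.8% were called in this comparison, 19.1% higher and 15.7% lower, or 4019 and 3289 genes, which became 3347 and 4355 with upper-quartile factors, where the members' median was -1.04. The median over the 9 genes was -0.95, beside -0.0038 over all genes. All 7 genes that fell were lower in every chitin library than in every mock library, against 22.3% of all genes, and EXPA1 was higher in the same sense, against 23.9%.

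EXPA15 fell from 53.0, 51.2 and 108 CPM to 22.1, 19.4 and 29.3 CPM in mapkkk5, or by 1.58 (SE 0.30, adjusted p = 0.00125). As in Col, the mock library of experiment 3 stood far above the others, and the same experiment was highest after chitin. EXPA3 went from 48.6, 43.2 and 48.1 CPM to 14.9, 16.4 and 21.4 CPM, a change of -1.41 ± 0.15 (adjusted p = 1.39e-05). EXPA4 changed by -1.32 ± 0.21 (adjusted p = 0.000372), from 115, 106 and 151 CPM to 44.3, 42.1 and 62.0 CPM.

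EXPA5 stood at 21.8, 18.7 and 26.5 CPM in mock and 8.03, 9.76 and 12.2 CPM after chitin in mapkkk5. The change was -1.16 ± 0.18 (adjusted p = 0.000237). EXPA6 went from 68.1, 67.9 and 83.4 CPM to 38.1, 32.7 and 42.7 CPM, a change of -0.95 ± 0.13 (adjusted p = 0.00012). In both genes the lowest mock library was above the highest chitin library by a wide margin.

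The smallest falls in mapkkk5 were those of EXPA8 and EXPA11. EXPA8 stood at 7.52, 4.8 and 5.0 CPM in mock and 3.19, 3.78 and 3.21 CPM after chitin, with mock experiment 1 standing above the rest, and the change was -0.77 ± 0.19 (adjusted p = 0.00787). Without experiment 1 the EXPA8 value was -0.49 (adjusted p = 0.151) and the call was lost. EXPA11 stood at 33.1, 31.4 and 29.3 CPM in mock and 27.0, 21.8 and 21.9 CPM after chitin, and the change was -0.41 ± 0.11 (adjusted p = 0.0108). The EXPA11 call was lost without experiment 2 (adjusted p = 0.143) or experiment 3 (adjusted p = 0.0628). EXPA1 rose from 128, 134 and 143 CPM to 198, 196 and 218 CPM, 0.60 ± 0.12 or 1.51-fold (adjusted p = 0.00143), with a clear gap between treatments, and this call held in all 21 alternative settings.

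**Figure D2:**
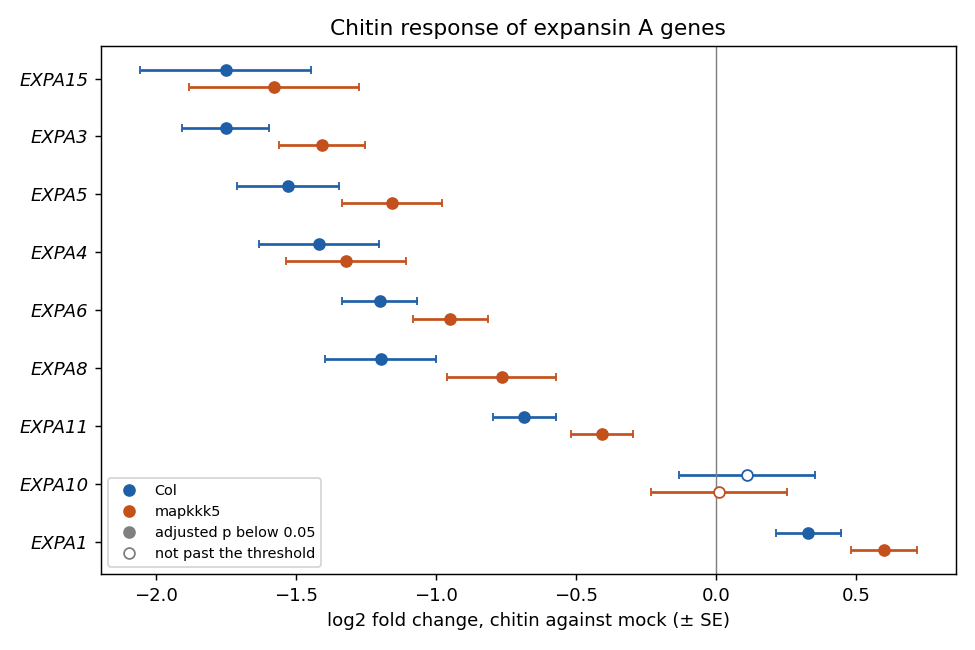
Log2 fold change of the 9 expansin A genes, chitin against mock, in Col (blue) and mapkkk5 (orange), with the standard error as bars and filled symbols for an adjusted p below 0.05. Values run from -1.75 for EXPA15 and EXPA3 in Col to 0.60 for EXPA1 in mapkkk5, and the value in mapkkk5 lies to the right of that in Col for every gene but EXPA10.

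The share of EXPA1 in the transcript pool of the 9 genes was higher after chitin in both genotypes. Their summed level was 379 ± 59.6 RPKM in Col mock and 245 ± 28.6 RPKM in Col chitin (SD, n = 3), and 364 ± 59.2 and 272 ± 28.0 RPKM in mapkkk5. EXPA1 made up 24.8 ± 1.22% of that sum in Col mock and 47.9 ± 4.19% after chitin. In mapkkk5 the share was 24.2 ± 2.66% in mock and 48.6 ± 2.11% after chitin. Per library the share ran from 21.3 to 26.6% over the 6 mock libraries and from 43.1 to 50.8% over the 6 chitin libraries, with no overlap. These sums and shares are described and were not tested.

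**Figure D3:**
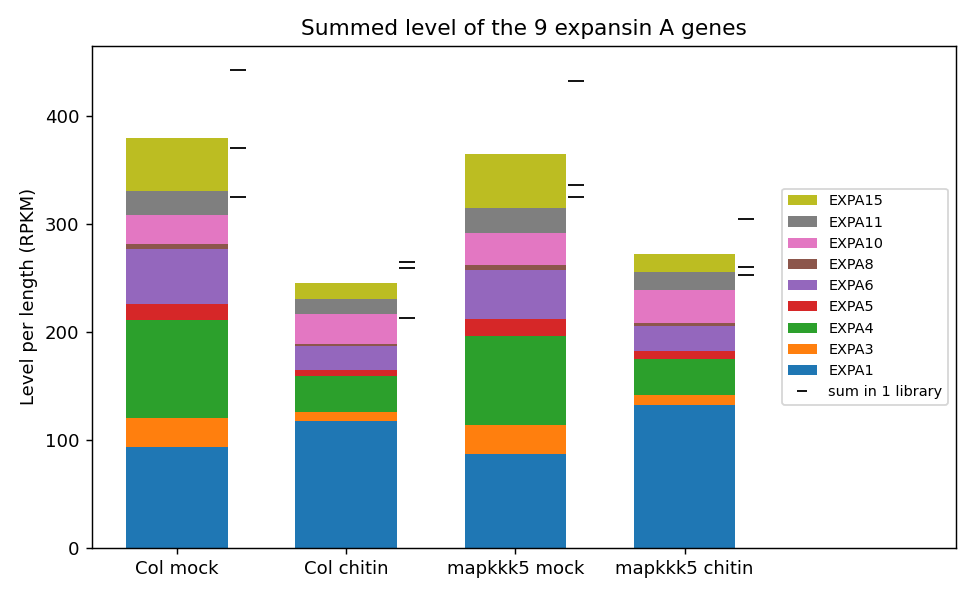
Summed level of the 9 expansin A genes per group in RPKM, stacked by gene from group means (n = 3), with a dash for the sum in each library. EXPA1, at the base, makes up 24.8% of the bar in Col mock and 47.9% in Col chitin, and 24.2% and 48.6% in mapkkk5.

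Between the genotypes, no member passed the test in mock, where 0.0191% of all genes were called, 0.00953% higher and 0.00953% lower. The 9 differences, mapkkk5 against Col, ran from -0.15 for EXPA6 to 0.19 for EXPA10 on the log2 scale, with a median of -0.05. Of the members 0 had an unadjusted p below 0.05, beside 463 of 20994 genes. DESeq2 called 0 members as well, beside 7 of all genes. In mock the groups of every member overlapped between genotypes, whereas 4.13% of all genes lay wholly higher and 3.97% wholly lower in mapkkk5.

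After chitin, 0 members passed in mapkkk5 against Col, where 0.0714% of all genes were called (0.00953% higher and 0.0619% lower). DESeq2 also called 0 members, beside 62 of 20994 genes. Of the 9 log2 differences, 8 were positive and the median was 0.18, and the exception was EXPA4 at -0.03 ± 0.21. Over all genes tested 9989 of 20994 were positive, with a median of -0.012. Of the 16 other expansins tested 9 were positive and 7 negative, with a median of 0.05. EXPA11 and EXPA5 had an unadjusted p below 0.05 in edgeR's quasi-likelihood test and in DESeq2, beside 1276 and 1139 of 20994 genes. With the replicate block EXPA3 joined them, beside 3002 genes, and again 0 members passed after adjustment. Seed storage genes were read beside them: their summed level was 0.213, 22.6 and 86.5 CPM in mapkkk5 chitin 1, 2 and 3 and 0.253 to 0.940 CPM in Col chitin. Of the 6 tested 0 passed by edgeR or DESeq2, while 5 and 4 had an unadjusted p below 0.05, and their part in the members' values was not tested. EXPA11 was at 27.0, 21.8 and 21.9 CPM in mapkkk5 chitin against 20.2, 18.3 and 17.6 CPM in Col chitin, a difference of 0.33 ± 0.11 (adjusted p = 0.732). All 3 mapkkk5 values lay above all 3 Col values, as those of EXPA8 did, which held for 3.69% of all genes tested, with 5.62% wholly lower. The EXPA5 groups overlapped, and its difference was 0.43 ± 0.19 (adjusted p = 0.813).

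The difference between the 2 chitin responses was tested directly, and 0 of the 9 genes passed, as did 0 of all genes tested (0% called, 275 of 20994 with an unadjusted p below 0.05). For the 9 members the count with an unadjusted p below 0.05 was 0 in edgeR and 0 in DESeq2, where 218 of 20994 genes had one. With the experiment as a replicate block it was 4, namely EXPA3, EXPA5, EXPA6 and EXPA11, beside 653 of 20994 over all genes in that fit, and none of the 4 passed after adjustment (adjusted p = 1). The difference, mapkkk5 minus Col, was positive for 8 members and -0.10 ± 0.34 for EXPA10, with a median of 0.27. Over all genes tested it was positive for 10040 of 20994, with a median of -0.0085. Of the 16 other expansins tested, 8 were positive and 8 negative, with a median of -0.04. Among the 9 members the difference was largest for EXPA8, at 0.43 (95% interval -0.17 to 1.03). EXPA5 had 0.37 (95% interval -0.17 to 0.91) and EXPA3 had 0.34 (95% interval -0.12 to 0.81). For EXPA4 the value was 0.10 (95% interval -0.55 to 0.74). Each of the 9 intervals included 0 in this fit. With the replicate block they were narrower for all 9, and those of EXPA3 (0.00429 to 0.69), EXPA5 (0.0131 to 0.76), EXPA6 (0.0204 to 0.49) and EXPA11 (0.0316 to 0.51), which carry no adjustment for the number of genes, did not include 0. The blocked interval of EXPA15 was -0.15 to 0.55 and that of EXPA8 was -0.12 to 1.01.

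Within each experiment, the log2 ratio of chitin to mock was compared between genotypes. EXPA1, EXPA4, EXPA5, EXPA6, EXPA8, EXPA11 and EXPA15 had the higher value in mapkkk5 in 3 of 3 experiments, EXPA3 in 2 of 3 and EXPA10 in 1 of 3. The size was uneven across experiments. For EXPA5 it was 0.09, 0.78 and 0.28 in experiments 1, 2 and 3, and for EXPA8 0.04, 0.65 and 0.67. For EXPA11 the values were closer, at 0.38, 0.20 and 0.23. The 9 genes share their libraries, so these signs are not independent of each other. The share of all genes with the same sign in 3 of 3 experiments was not taken, so these counts have no background beside them.

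**Figure D4:**
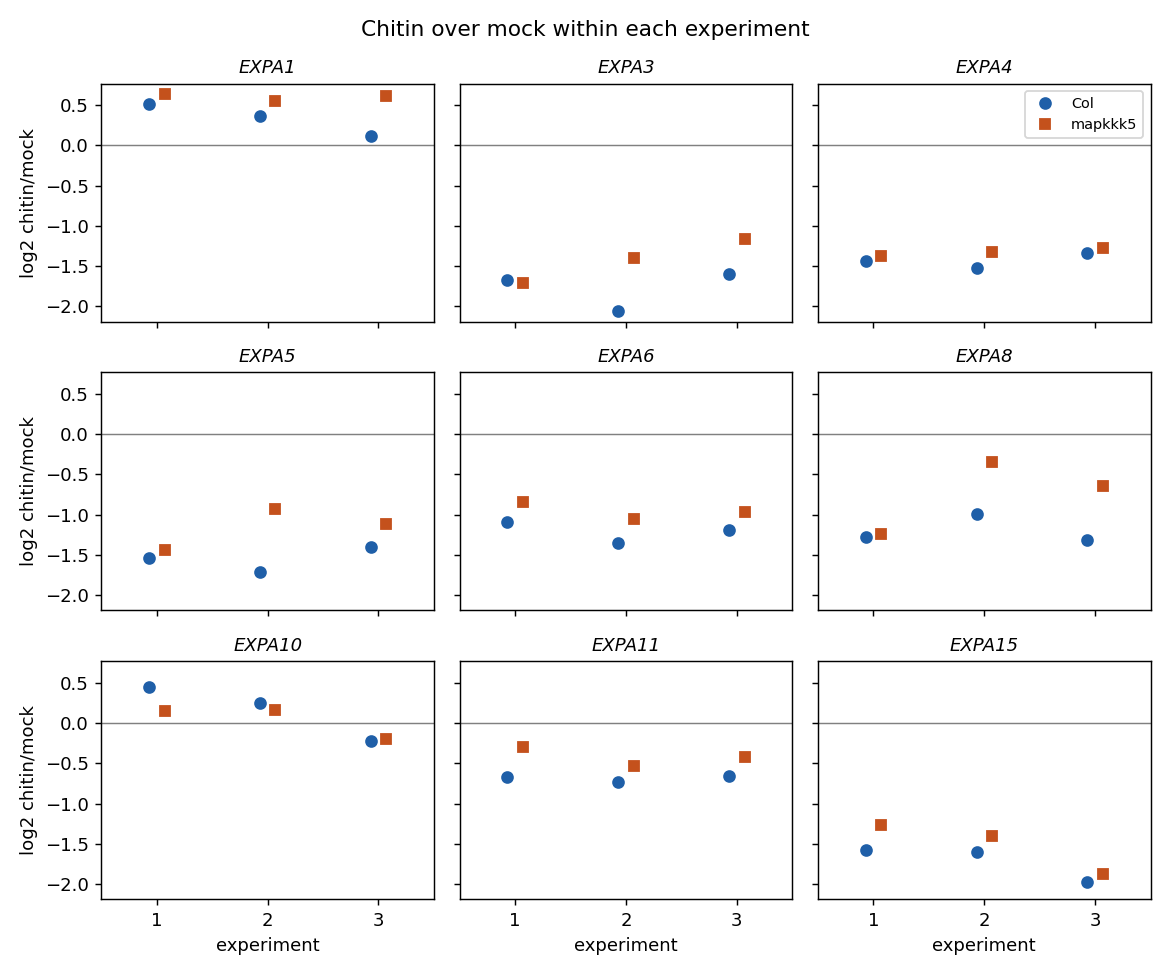
Log2 ratio of chitin to mock for each expansin A gene in each of the 3 experiments, Col as blue circles and mapkkk5 as orange squares. The 7 genes that fell lie below 0 in all 3 experiments of both genotypes, EXPA1 lies above 0 throughout, and EXPA10 crosses 0, with 0.45 in experiment 1 and -0.22 in experiment 3 in Col.

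Likeness to the members' common profile was taken across the 12 libraries. The Pearson correlation of each gene's log2 CPM with the mean of the standardized values of all 9, itself included, was 0.81 for EXPA11, 0.86 for EXPA8 and 0.96 to 0.98 for EXPA3, EXPA4, EXPA5, EXPA6 and EXPA15. It was 0.19 for EXPA10 and -0.60 for EXPA1. These are descriptions over 12 libraries, and they hold the treatment by which the 7 genes differed. With the group means taken off, the genes that fell did not all vary together. EXPA3, EXPA4, EXPA5, EXPA6 and EXPA15 still correlated with each other, from 0.56 (EXPA3 and EXPA15) to 0.93 (EXPA4 and EXPA6). With these 5 genes, EXPA11 ran from -0.54 (EXPA5) to -0.23 (EXPA6) and EXPA8 from -0.35 (EXPA6) to 0.04 (EXPA3). EXPA10, which did not pass the test, correlated at 0.94 with EXPA15 and at 0.79 with EXPA4. Differences between experiments were not taken off, and EXPA10, EXPA15 and EXPA4 were each highest in experiment 3 in all 4 groups. These correlations therefore hold a shift shared by the libraries of that experiment. Among 14648 other genes whose log2 CPM averaged 3 or more, the 5 most like that profile were AT2G43550 (r = 0.978), BCAT3 (0.976), AT1G55260 (0.973), BDG1 (0.973) and PG2 (0.972). BCAT3 encodes a branched-chain aminotransferase, BDG1 a hydrolase of cuticle formation, and PG2 a polygalacturonase-type wall protein. AT1G55260 went from 33.6 CPM in Col mock to 10.8 CPM in Col chitin, and PG2 from 101 to 54.2 CPM in mapkkk5.

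Of the 26 other expansin genes in the table, 16 passed the filter on low counts. In Col 2 of the 16 were called higher and 5 lower, beside 21.2% and 17.3% of all genes tested. In mapkkk5 1 was called higher and 7 lower, beside 19.1% and 15.7% of all genes. The median log2 fold change of the 16 was -0.32 in Col and -0.48 in mapkkk5. Among the 16 the lowest values are given first. EXPB3, a beta-expansin, had the lowest values, -2.0 ± 0.34 in Col (adjusted p = 0.000432) and -2.08 ± 0.34 in mapkkk5 ( adjusted p = 0.000393), from 98.8 to 24.5 CPM and from 104 to 24.5 CPM. The fitted fall was larger than in any of the 9 members, a difference that was not tested. EXLA1 also fell, with -1.08 in Col and -0.81 in mapkkk5, as did EXLA2 with -1.01 and -0.74 and EXPA13 with -0.83 and -0.63. EXPA17, known from lateral root formation, fell by 0.57 in Col (adjusted p = 0.0212) and fell by 0.86 in mapkkk5 (adjusted p = 0.00221), and the Col call was lost without Col mock 1 (0.0527), Col mock 3 (0.0761), Col chitin 3 (0.0887) or all of experiment 3 (0.220). The EXLA1 call in Col was lost without experiment 1 (adjusted p = 0.0595).

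Several calls of this group in mapkkk5 rested on single libraries or experiments. The count of 8 was 5 without experiment 1, without experiment 3 or without mapkkk5 mock 1. Over all genes the calls in mapkkk5 went from 7308 to 4905, 4762 and 6155 in these fits. EXLA1 was lost without mapkkk5 mock 1 (adjusted p = 0.0501), mapkkk5 mock 3 (0.0735) or mapkkk5 chitin 2 (0.0537), and also without experiment 1 (0.0668) or experiment 3 (0.0807). EXLA2 was lost without experiment 3 (0.0886). EXPA20 was lost without mapkkk5 mock 1 (0.0691), mapkkk5 chitin 3 (0.0748), experiment 1 (0.162) or experiment 3 (0.106). EXLA3, at a mean of 0.93 to 2.27 CPM per group, was lost on leaving out any of 9 of the 12 libraries (up to 0.155). The EXLA3 call was also lost without experiment 1 (0.206) or experiment 2 (0.369), and with only the compared groups (0.0583).

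Some of these other expansins went the opposite way. EXLB1, an expansin-like gene, rose by 1.52 ± 0.19 in Col (adjusted p = 2.84e-05) and by 1.53 ± 0.19 in mapkkk5 (adjusted p = 3.58e-05), from 34.1 to 98.0 CPM and from 29.9 to 86.4 CPM. EXPA7, an expansin of root hair cells, rose by 0.84 ± 0.28 in Col (adjusted p = 0.0308) and had 0.66 ± 0.28 in mapkkk5 (adjusted p = 0.0864), and with the replicate block the mapkkk5 value also passed (adjusted p = 0.0371). The Col call for EXPA7 was lost without Col mock 1 (adjusted p = 0.103), Col mock 2 (0.0879), Col chitin 1 (0.106) or Col chitin 3 (0.0536). That call was also lost without experiment 1 (0.279) or experiment 3 (0.0501). EXPA20 and EXLA3 passed in mapkkk5 and not in Col, with -0.54 (adjusted p = 0.0167) and -1.15 (adjusted p = 0.0479) in mapkkk5 beside -0.28 and -0.79 in Col. The difference between the genotypes did not pass for either.

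**Figure D5:**
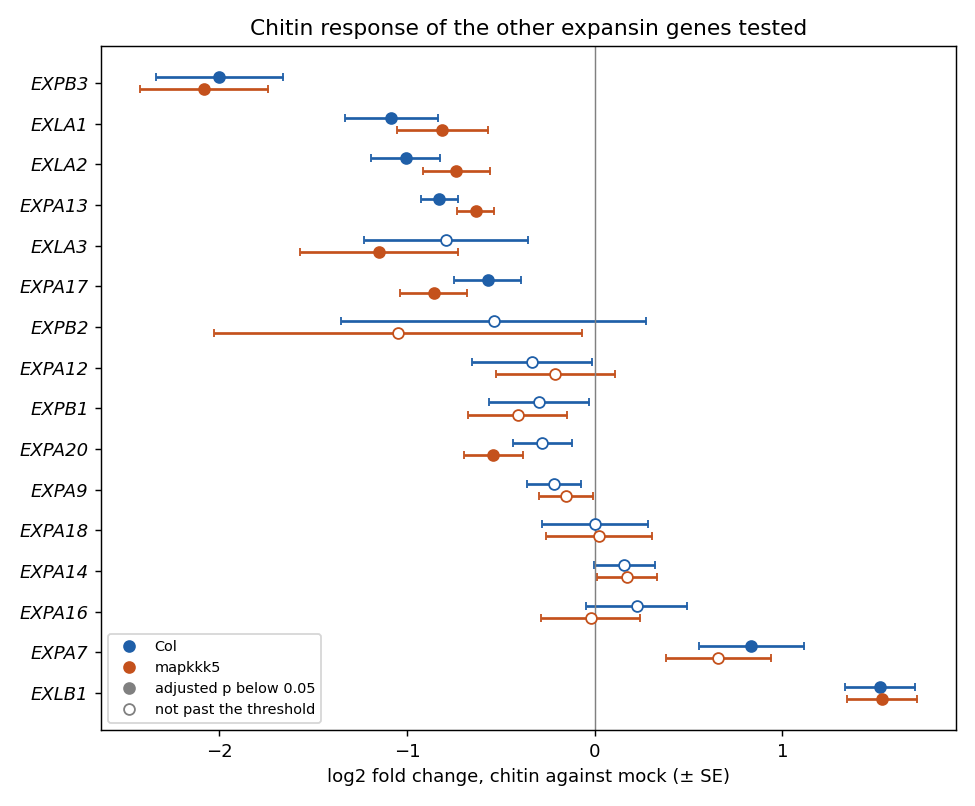
Log2 fold change of the 16 other expansin genes tested, chitin against mock, in Col (blue) and mapkkk5 (orange), with the standard error as bars and filled symbols for an adjusted p below 0.05. The genes run from EXPB3 at -2.0 in Col to EXLB1 at 1.52, and EXPA7 is filled in Col only.

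Genes that set wall pH for expansins were listed as an acid growth group: plasma membrane proton pumps, small auxin-up RNAs and the phosphatases they inhibit. Of 12, 9 were tested, and 0 passed in either genotype by edgeR's quasi-likelihood test or by DESeq2, with 0 at an unadjusted p below 0.05 in each by edgeR. Over all genes tested, 38.5% passed in Col and 34.8% in mapkkk5 by edgeR. The median log2 fold change of the 9 acid growth genes was -0.11 in Col and 0.03 in mapkkk5. AHA1, a main proton pump, had 0.26 in Col (adjusted p = 0.234), and with the replicate block the value was 0.24 (adjusted p = 0.0472). Without Col chitin 1 the count in Col was 1 (SAUR20, adjusted p = 0.0327).

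Of 16 transcription factors of elongation growth, 15 were tested. In Col 3 rose and 2 fell, with a median of -0.08, and in mapkkk5 2 rose and 1 fell, with a median of 0.01. Over all genes tested, 38.5% were called in Col and 34.8% in mapkkk5. With the replicate block 8 of the 15 were called in each genotype, beside 10558 of 20994 genes in Col and 9896 in mapkkk5. PIF3, a phytochrome-interacting factor, rose by 0.53 ± 0.09 in Col (adjusted p = 0.000315) and by 0.75 ± 0.09 in mapkkk5 (adjusted p = 2.33e-05). IBH1, which restrains cell elongation, rose by 0.86 ± 0.16 and 0.81 ± 0.16 (adjusted p = 0.000822 and 0.00157). BES1, a transcription factor of brassinosteroid signalling, fell by 0.50 in Col (adjusted p = 0.00124) and had -0.19 in mapkkk5 (adjusted p = 0.165), where it passed with the block (adjusted p = 0.0466).

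Genes of primary wall cellulose synthesis were mostly called lower after chitin. These were 6 of 8 genes in Col and 6 of 8 in mapkkk5, and none was called higher. Over all genes tested, 17.3% were called lower in Col and 15.7% in mapkkk5. All 8 cellulose synthesis genes had negative values in both genotypes, with medians of -0.52 and -0.51. CESA5, a catalytic subunit of the cellulose synthase complex, went from 140 to 77.7 CPM in Col, a fall of 0.85 (adjusted p = 0.00042), and fell by 0.87 in mapkkk5 (adjusted p = 0.000427). CESA1 fell too, with -0.64 in Col and -0.59 in mapkkk5, and so did CESA2, with -0.54 and -0.49. Without experiment 1 the count was 3 in each genotype, beside 2128 lower calls among 21048 genes in Col and 1997 in mapkkk5.

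Markers of particular seedling cells were followed beside the 7 expansins that fell. The part of these markers in the fall of the 7 genes was not tested. For the counts of markers below, 38.5% of all genes tested were called for chitin in Col and 34.8% in mapkkk5. With the replicate block, 10558 of 20994 genes were called in Col and 9896 in mapkkk5. The summed level of 5 root hair markers was 55.2 to 92.2 CPM in the 6 mock libraries and 28.9 to 64.4 CPM in the 6 chitin libraries, with all 5 detected in every library. In Col 1 rose and 1 fell, and in mapkkk5 0 rose and 1 fell. With the replicate block 1 rose and 3 fell in Col, and 0 rose and 3 fell in mapkkk5. COBL9, another of the root hair markers, was not called in the main fit. With the block it had -0.51 in Col (adjusted p = 0.0448) and -0.58 in mapkkk5 (adjusted p = 0.0284). PRP3, a wall protein of root hairs, fell by 1.09 in Col (adjusted p = 0.00529) and fell by 1.12 in mapkkk5 (adjusted p = 0.00563), while RSL4, a root hair transcription factor, rose by 0.60 in Col (adjusted p = 0.0424), a call lost on leaving out any of 8 of the 12 libraries (adjusted p up to 0.163). The 4 leaf photosynthesis markers summed to 11510 to 13910 CPM in mock and 8821 to 11255 CPM after chitin, with 1 lower in Col and 0 called in mapkkk5 by edgeR. With the block 0 were higher and 3 lower in Col, and 1 was higher and 3 lower in mapkkk5. Of these, RCA had -0.38 in Col (adjusted p = 0.000722) and -0.24 in mapkkk5 (adjusted p = 0.0185) with the block. CAB1 had -0.44 (adjusted p = 0.000817) and -0.30 (adjusted p = 0.0131) in the same fit. Neither was called in the main fit. RBCS1A, a Rubisco small subunit gene with near-identical copies that make its counts uncertain, had -0.54 in Col (adjusted p = 0.0387), a call lost on leaving out any of 5 libraries (up to 0.126). The 8 seed storage markers summed to 22.6 to 86.5 CPM in Col mock 1, mapkkk5 mock 1 and 3 and mapkkk5 chitin 2 and 3, against 0.213 to 1.17 CPM in the other libraries, where up to 7 of the 8 had no read. In each genotype 0 of 6 seed storage genes tested passed for chitin by edgeR, with 0 at an unadjusted p below 0.05, and DESeq2 called 1 in Col and 0 in mapkkk5. The members were called in the same directions when any 1 of the libraries with the higher sums was left out, except EXPA1 in Col without Col mock 1 as given above. Each such fit still held the others of these libraries, so it cannot show what part seed material has in the members' values. That part was not tested.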

How the data were processed

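RNA of 12 libraries, 3 per group, was compared. Raw read counts per gene, with no normalization, were deposited by the authors as 1 table for all libraries. Tools named without settings, per the submitters' processing notes, are HTSeq 0.6.1, TopHat2 2.0.10, cutadapt 1.5 and CASAVA 1.8.2, with TAIR10 as the build. The library kit was directional per the labels' protocols, but no source used here gives the strand setting of the counting, and reads of overlapping or near-identical genes could be dropped or divided.

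Low counts were filtered with filterByExpr over the 4 groups, library sizes were scaled by TMM, and 1 edgeR quasi-likelihood model (edgeR 4.0.16, R 4.3.3) with 8 residual degrees of freedom was fitted to all 12 libraries. Log2 fold changes have standard errors from the quasi-likelihood F statistic, and all p-values were adjusted over the 20994 genes by Benjamini-Hochberg, with calls below 0.05. CPM used TMM-scaled library sizes and RPKM the exonic length in TAIR10.1, with a prior count of 2 on the log scale used for correlations. Depth limits precision as given with the library sizes. The code was tested on simulated data.

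Whether replicate numbers mark shared experiments was checked on deviations from group means: all 12 same-numbered pairs within the compared groups correlated at 0.156 to 0.509, above the limit of 0.1, in keeping with the design text, which speaks of independent experiments. The main fit had no block, so its standard errors, p-values and intervals leave this pairing out, and a fit with it was an alternative. The common dispersion, the spread between replicates in the model, was 0.0216 without the block and 0.0088 with it. Other alternatives were RLE and upper-quartile factors, DESeq2 1.42.0, no filter, only the compared groups, and leaving out each library or experiment. That the libraries within a group are independent rests on the labels. Across groups, libraries of the same experiment were correlated as given above.

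The members and all gene lists were chosen with earlier results of these data known. Besides the 9 members, the text names the 3 genes with the smallest p for chitin in Col of each list, at most, the other expansins called in either genotype, and the 5 genes most like the members' profile. Seed storage genes are given as sums only, since at least 4 of the 8 had no read in 7 libraries.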

Additional observations from a re-analysis of the deposited data

How the results depend on the processing

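The count of expansin A genes called for chitin was 7 to 8 in Col and 7 to 8 in mapkkk5 over 21 alternative settings, and 0 in each of the 21 for both genotype comparisons. For the difference between responses it was 0 in each of 20, since a fit of only the compared groups cannot give it. With the experiment as a replicate block it was 8 in Col and 8 in mapkkk5, and the block changed no member's call. The calls of EXPA3, EXPA4, EXPA5, EXPA6 and EXPA15 held in both genotypes under all 21, and those of EXPA1 (Col), EXPA8 and EXPA11 (mapkkk5) did not, as given with their values. Upper-quartile factors moved the median of all genes for chitin in Col by -0.11 on the log2 scale. In all genes, mapkkk5 against Col in chitin gave 15 calls, 62 with DESeq2 and 96 with the replicate block, and the difference between responses gave 0, 6 and 2.

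Directions changed only for values that passed no test, and the cause was not tested. For chitin, EXPA10 in Col was -0.0301 without experiment 1 and -0.0487 to 0.46 on leaving out 1 library. In mapkkk5 EXPA10 was -0.0746 with upper-quartile factors, -0.0470 without experiment 1, -0.0581 without experiment 2 and -0.13 to 0.30 on leaving out 1 library, and SAUR20 was -0.39 to 0.39. For mapkkk5 against Col in mock, EXPA15 was -0.0123 with the replicate block, and EXPA15 was -0.11 and EXPA5 -0.0367 without experiment 3. On leaving out 1 library the mock values were -0.0939 to 0.00443 for EXPA3, -0.30 to 0.0159 for EXPA4, -0.0796 to 0.18 for EXPA5, -0.10 to 0.53 for EXPA10, -0.00228 to 0.11 for EXPA11 and -0.43 to 0.33 for EXPA15. In chitin EXPA4 was 0.00408 with upper-quartile factors and 0.0405 without experiment 1, and leaving out 1 library gave -0.23 to 0.17 for EXPA4, -0.0112 to 0.19 for EXPA6, -0.0534 to 0.19 for EXPA10 and -0.00403 to 0.34 for EXPA15. The difference between responses was -0.10 to 0.30 for EXPA4, -0.45 to 0.19 for EXPA10 and -0.15 to 0.61 for EXPA15. EXPA8 rested on 43 to 135 reads per library.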
